A study of Rattus norvegicus with 9 samples.

Results

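The genes described here are the matrix metalloproteinases, the ADAMTS proteases with the ADAMTS-like proteins, and the tissue inhibitors of metalloproteinases (TIMPs) of the rat prostate. They were chosen by name, from probes whose accession belonged to a rat gene symbol starting with Mmp and a digit, Adamts, or Timp and a digit. This gave 37 genes with 43 probes, out of 15163 named genes and 30356 probes on the array. The RefSeq gene table holds 52 symbols of this kind, and those without a probe are not analysed here.

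Matrix metalloproteinases are zinc-dependent enzymes that cleave collagens, elastin, laminins and other proteins around cells. Most are secreted as inactive precursors and are switched on by other proteases such as plasmin, while membrane-type members are anchored at the cell surface. ADAMTS enzymes are secreted relatives that cleave proteoglycans such as versican and aggrecan or process procollagens, and TIMPs bind and block the active site of these enzymes. In the prostate, matrix around the glands is remodelled when androgen is withdrawn and given back.

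Expression was measured with Agilent one-colour arrays in prostates of 9 male Sprague Dawley rats, 3 per group, bought at an age of 6 weeks. Sham rats kept their testes and received corn oil and water as vehicles. BPH rats (a model of benign prostatic hyperplasia) were castrated, injected with dihydrotestosterone (DHT, 3 mg/kg daily) for 4 weeks and given water by gavage. BPH+ghrelin rats had the same castration and DHT, and rat ghrelin (20 nmol/kg daily, by gavage) for the last 2 weeks. These are the treatments given in the study's methods, while other passages of the study name testosterone and another dose and route of ghrelin. There was no group with castration alone, so castration and DHT cannot be told apart. The study kept 8 rats per group, and how the 3 prostates per group were picked is not given in the sources used here, so p-values measure only the spread between these arrays.

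The depth of an array is given by its signal over background. The scanner software marks a spot as well above background when its signal clearly exceeds the local background, and 61.4% of all probes reached this on sham replicate 2 and at least 69.5% on each other array. No spot was saturated. Sham replicate 3 had a signal between those of the other sham arrays at 72.7% of probes, BPH replicate 2 likewise within its group at 70.5% and BPH+ghrelin replicate 2 at 68.2%, while the remaining arrays had such in-between signals at 10.1% to 17.8%. Whether RNA was shared between arrays cannot be told from the sources used here. If it was, the SE and p-values given below would rest on fewer independent rats than arrays. With the 3 in-between arrays left out together, the number of genes called at an adjusted p under 0.05 fell from 849 to 3 (BPH against sham), from 293 to 0 (BPH+ghrelin against BPH) and from 1207 to 2 (BPH+ghrelin against sham), with 2 arrays per group. No member was called with 2 arrays per group, where hardly any gene passed. The differences stayed close to those with all arrays, but leaving out an in-between array moves a group mean little by construction. This closeness therefore says nothing about the calls. Without the 3 arrays the differences were 1.43 for Mmp12 and -1.11 for Mmp16 in BPH against sham, and -2.17 for Mmp16, 1.38 for Mmp17 and 1.21 for Timp1 in BPH+ghrelin against sham (log2 scale). Arrays with the same scan time in the scanner headers were taken to share a slide. By this rule, slide 1 carried all BPH arrays together with BPH+ghrelin replicate 1. Slide 2 carried the 2 remaining BPH+ghrelin arrays and sham replicates 1 and 2, and slide 3 carried sham replicate 3. No slide held both BPH and sham arrays, so for BPH against sham slide and group cannot be told apart within a slide. The prostate gene Pbsn (probasin) was well above background on all 9 arrays.

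Of the 37 genes, 16 were well above background on all 9 arrays, 11 on some and 10 on 0 arrays. The 10 genes without such a signal were Mmp8, Mmp9, Mmp10, Mmp20, Mmp21, Mmp27, Mmp28, Adamts4, Adamts12 and Adamts18. They include Mmp9, the gelatinase of leukocytes, and Mmp8, the collagenase of neutrophils. The signal of Mmp9 ranged from 0.80 to 0.95 in sham, from 0.84 to 0.96 in BPH and from 0.89 to 1.38 in BPH+ghrelin (log2 values, quantile normalized, as all values below unless stated otherwise). A further 3 genes (Mmp1, Mmp3 and Adamtsl5) were seen on only 1 or 2 arrays and were not tested, since a difference cannot be measured on probes this dim. Testing required such a signal on 3 or more of the 6 arrays in a comparison, which left 22 genes for BPH against sham, 24 for BPH+ghrelin against BPH and 22 for BPH+ghrelin against sham, 24 in all.

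**Figure D1:**
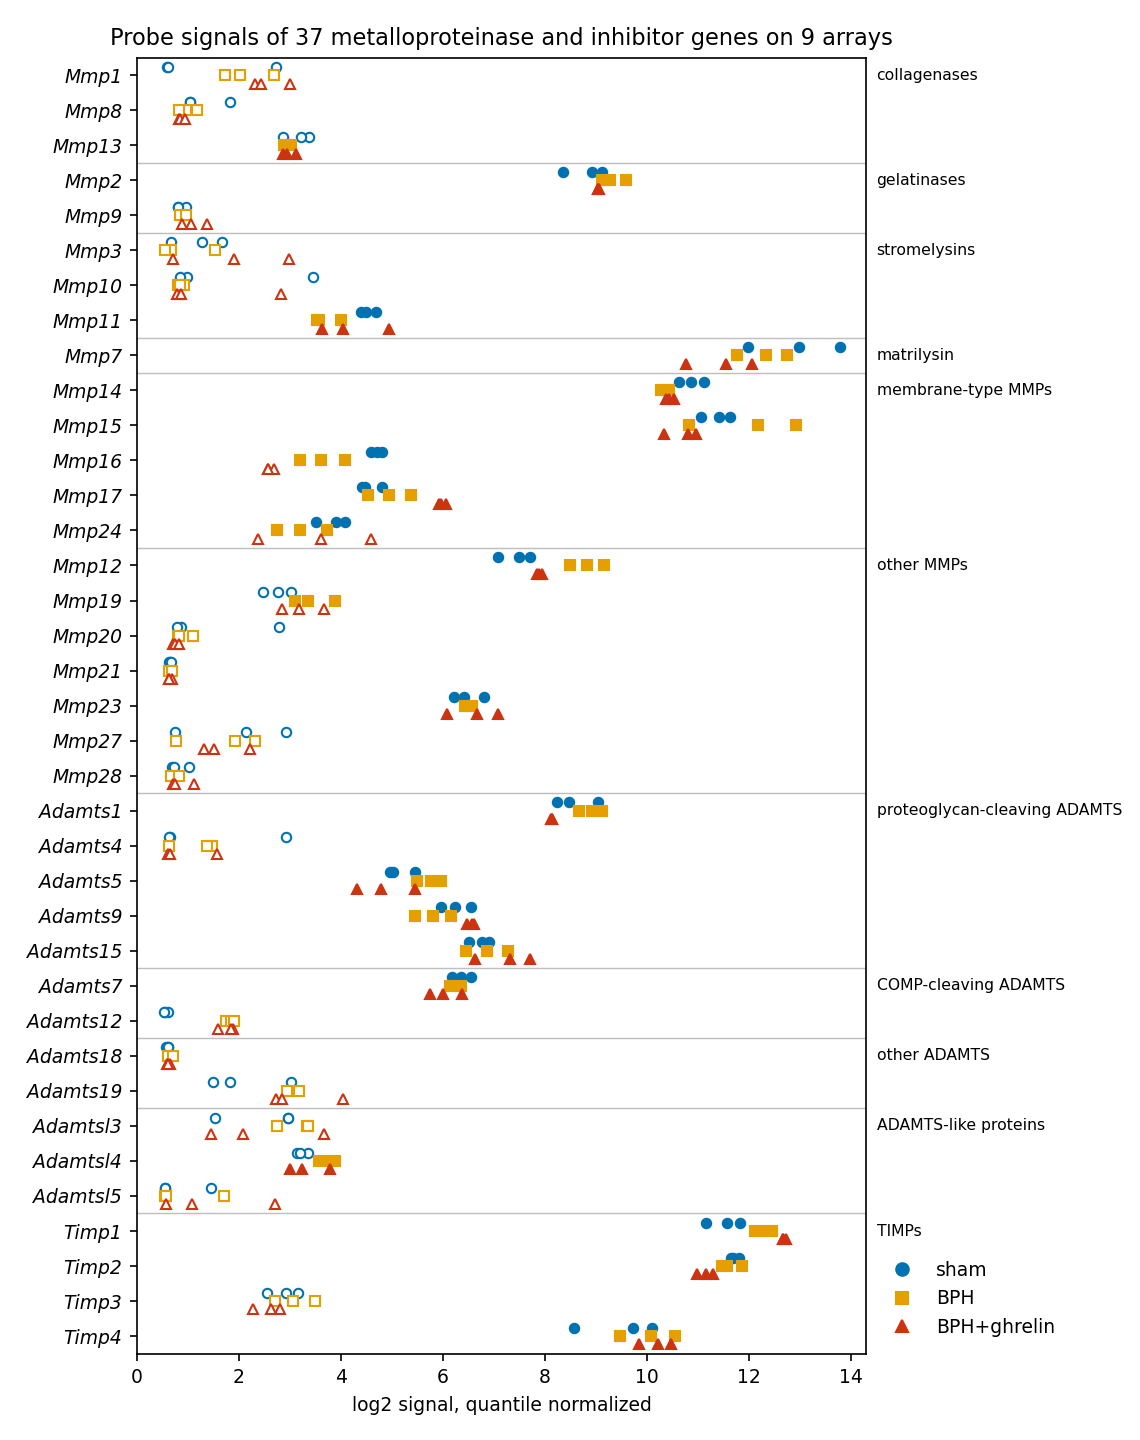
Probe signal (log2, quantile normalized) of the 37 genes on the 9 arrays, grouped by the role of the protein. Blue circles are sham, yellow squares BPH and red triangles BPH+ghrelin, and filled symbols mark groups in which all 3 arrays were well above background. The signals of different probes cannot be set against each other, so each row is read across its groups only, as for Mmp16, which is filled in sham and BPH and open in BPH+ghrelin.

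BPH against sham asks what castration with DHT changed. Mmp12, the macrophage elastase, rose, and Mmp16, a membrane-type metalloproteinase that can activate the precursor of Mmp2, fell. The signal of Mmp12 was 7.71, 7.08 and 7.49 in sham, 9.16, 8.82 and 8.50 in BPH and 7.94, 7.89 and 7.83 in BPH+ghrelin. All 3 BPH arrays were above all sham arrays, and the BPH+ghrelin arrays lay between both groups without overlap. Mmp12 was 2.64-fold higher in BPH compared to sham (difference 1.40 ± 0.21 SE on the log2 scale, n = 3 per group, adjusted p = 0.014, limma with Benjamini-Hochberg adjustment over all genes tested). The call was lost without sham replicate 3 (difference 1.43, adjusted p = 0.060) or without BPH replicate 2 (1.40, adjusted p = 0.083), and ranged from 1.23 to 1.57 over all single arrays left out.

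Mmp16 had signals of 4.70, 4.81 and 4.59 in sham, 4.09, 3.61 and 3.19 in BPH and 2.58, 2.69 and 2.57 in BPH+ghrelin. The 3 groups did not overlap and stood in this order. The BPH+ghrelin arrays were not well above background for this probe, while all 6 other arrays were. Mmp16 was 2.10-fold lower in BPH compared to sham (difference -1.07 ± 0.21 SE, n = 3 per group, limma adjusted p = 0.035). This call was lost without sham replicate 2 (difference -1.02, adjusted p = 0.057), without sham replicate 3 (-1.13, adjusted p = 0.11), without BPH replicate 2 (-1.05, adjusted p = 0.15) or without BPH replicate 3 (-0.84, adjusted p = 0.070). With a normexp background correction, which compresses dim signals, the difference was -0.22 (adjusted p = 0.075). Without a filter on dim probes and with the trend and robust settings of eBayes, the adjusted p was 0.053 and 0.051.

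In total, 2 of 22 genes were called in BPH against sham, 1 in each direction, with 4.34% of all 19552 genes tested being called (2.16% higher and 2.18% lower). Here and below, all genes tested include accessions and probes without a gene symbol, each counted as a gene. Before adjustment, 5 higher and 3 lower genes had a p under 0.05, compared to 14.4% and 12% of all genes (26.5% together). The 2 called genes were also the ones that differed at least 2-fold, 1 higher (3.53% of all genes) and 1 lower (4.63% of all genes). Without overlap between the groups were 9 of the 22 genes (40.9%, compared to 31.3% of all genes tested). Higher without overlap were Mmp12, Timp1, Mmp19, Adamts5, Mmp2 and Adamtsl4 (17.1% of all genes), and lower were Mmp16, Mmp11 and Mmp14 (14.2% of all genes). Regardless of the test, 13 of the 22 genes had a higher and 9 a lower mean, compared to 53.7% and 46.3% of all genes. The median difference of the 22 genes was 0.18, and that of all genes 0.04.

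Of the genes not called, Timp1 came closest to the threshold and Mmp14 next, while Mmp2, Mmp11 and Mmp19 were further from it. Timp1, a secreted inhibitor of most matrix metalloproteinases, had signals of 11.81, 11.15 and 11.56 in sham and 12.12, 12.27 and 12.45 in BPH, so that all BPH arrays were higher (difference 0.77 ± 0.18 SE, adjusted p = 0.053). It passed the threshold in 6 of 18 alternatives, among them normexp (adjusted p = 0.038), the deposited matrix (adjusted p = 0.048) and the fit without sham replicate 1 (adjusted p = 0.021), and its adjusted p ranged from 0.0044 to 0.81 over all of them. Mmp14, the membrane-type enzyme that activates the precursor of Mmp2 together with Timp2, had signals of 11.12, 10.62 and 10.86 in sham and 10.44, 10.38 and 10.27 in BPH (difference -0.50 ± 0.15 SE, adjusted p = 0.087). All sham arrays were above all BPH arrays for Mmp14. Mmp2, a gelatinase made by stromal cells, had 9.11, 8.36 and 8.92 in sham and 9.11, 9.27 and 9.58 in BPH, where the lowest BPH array lay just above the highest sham array (difference 0.53 ± 0.21 SE, adjusted p = 0.16). Its other probe showed a difference of 0.74, but with overlap (5.19 to 7.00 in sham and 6.75 to 7.18 in BPH). Mmp11, a stromelysin that furin activates inside the cell, went from 4.40, 4.68 and 4.49 in sham to 4.00, 3.54 and 3.57 in BPH (difference -0.82 ± 0.31 SE, adjusted p = 0.15). For Mmp19 the signals were 2.48, 2.78 and 3.02 in sham and 3.10, 3.36 and 3.88 in BPH, and only 1 of 3 sham arrays was well above background (difference 0.69 ± 0.27 SE, adjusted p = 0.16).

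Mmp12 is known as a macrophage gene, and macrophage markers were therefore read beside it. Of 7 markers, 6 were detected and Itgam was not well above background on any array. Adgre1 (F4/80) rose from 4.97, 6.12 and 5.52 in sham to 6.63, 6.73 and 6.79 in BPH (difference 1.18 ± 0.26 SE, limma adjusted p = 0.043), and was the one marker called among the 6 tested. It had 5.94, 5.90 and 6.08 in BPH+ghrelin, between both other groups on average as Mmp12 was. With single arrays left out, Adgre1 was called in 2 of 6 fits (adjusted p from 0.0068 to 0.17), and the call was lost without sham replicate 3 or any 1 of the 3 BPH arrays. It was also lost with the 6 arrays compared only (adjusted p = 0.13), without a filter on dim probes (0.064), with the replicate block (0.081) and with slide as a block (0.76), and with normexp the difference was 0.57. The summed marker signal (log2) was 13.10 to 13.36 in sham, 13.32 to 13.99 in BPH and 12.73 to 13.17 in BPH+ghrelin. This sum is weighted to probes with bright signals, and over the 6 markers tested 3 were higher and 3 lower in BPH compared to sham, with a median difference of -0.06. Besides Adgre1, the differences were 0.67 for Cd14, 0.11 for Cd68, -0.23 for Cd163, -0.32 for Aif1 and -0.58 for Csf1r, and none of these passed the test. In such tissue samples, more cells of a type and more RNA per cell cannot be told apart, and the part of macrophages in the Mmp12 difference was not tested.

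**Figure D2:**
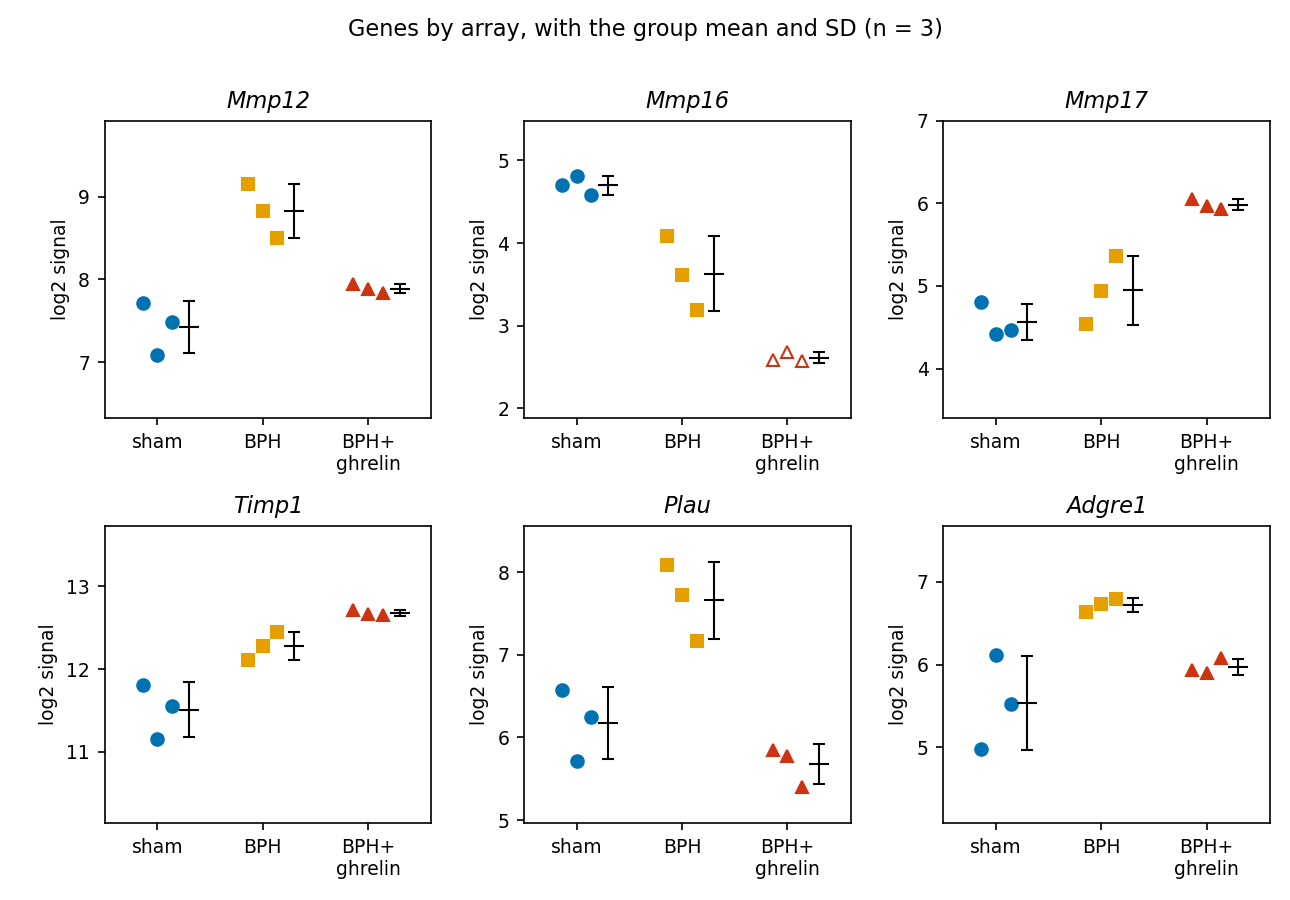
Log2 signal of the 4 genes called in at least 1 comparison (Mmp12, Mmp16, Mmp17 and Timp1) and of Plau and Adgre1 on each array, with the group mean ± SD in black (n = 3). Every panel spans the same range of log2 units, and open symbols mark groups without an array well above background. Mmp12, Plau and Adgre1 are highest in BPH, Mmp16 steps down over the groups and Timp1 steps up.

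On rat chromosome 8, Mmp12 lies in a cluster of 10 Mmp genes of the RefSeq table, and 9 of them had a probe. In the order of the chromosome these are Mmp13, Mmp12, Mmp3, Mmp1, Mmp10, Mmp8, Mmp27, Mmp20 and Mmp7. Only Mmp12 and Mmp7 were well above background on all 9 arrays. Mmp13, a collagenase, was at 2.86 to 3.37 in sham, 2.89 to 3.03 in BPH and 2.86 to 3.13 in BPH+ghrelin, and differed by -0.21 ± 0.16 SE between BPH and sham (adjusted p = 0.40). The other 6 genes were well above background on 0 arrays (Mmp10, Mmp8, Mmp27 and Mmp20) or on 1 or 2 (Mmp3 and Mmp1), among them Mmp3, a stromelysin. Mmp1b, which lies between Mmp12 and Mmp3, had no probe.

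**Figure D3:**
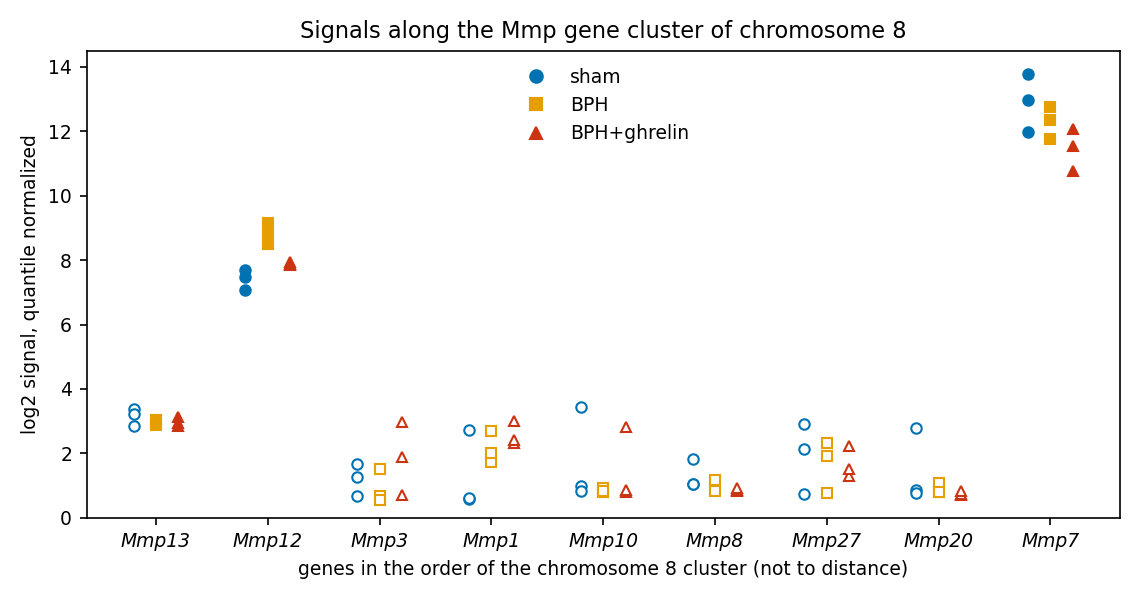
Log2 signal of the 9 cluster genes on each array, in the order of the genes on chromosome 8 (equal spacing, not distance). Filled symbols mark groups with all 3 arrays well above background. Only Mmp12 and Mmp7 are filled in all groups, and the 6 genes between them are drawn with open symbols.

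Promoters of these genes are known for binding sites of the AP-1 factors (Fos and Jun), and the RefSeq promoters (assembly GRCr8, the 250 bases before each start site) were searched for 3 short motifs on both strands: TGANTCA for AP-1, which reads alike on both strands, AGGAAG (or CTTCCT) for ETS factors, and AGAACA (or TGTTCT), a half-site of the androgen response element. Of the 37 genes, 28 had a promoter sequence. The AP-1 motif was found in 7 of them (Mmp1, Mmp3, Mmp7, Mmp10, Mmp12, Mmp13 and Mmp20), all within the cluster, compared to 6.34% of all 33469 promoters. The ETS motif was found in 9 and the androgen half-site in 6 of the 28, compared to 29.5% and 17.5% of all promoters. The promoters of Mmp12 (chr8:12866402-12866651, plus strand), Mmp7 (chr8:13132793-13133042, plus strand) and Mmp13 (chr8:12782579-12782828, plus strand) are shown because they share the AP-1 motif and were the cluster genes with a signal on at least 8 of the 9 arrays, and Timp1 (chrX:3771123-3771372, minus strand) because it was called without this motif. Capitals mark the motifs, none of which overlap here.
Mmp12: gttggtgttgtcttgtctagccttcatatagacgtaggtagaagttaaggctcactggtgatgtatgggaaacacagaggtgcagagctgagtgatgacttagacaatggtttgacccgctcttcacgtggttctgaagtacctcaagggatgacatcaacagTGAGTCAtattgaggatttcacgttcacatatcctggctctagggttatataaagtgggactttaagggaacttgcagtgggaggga
Mmp7: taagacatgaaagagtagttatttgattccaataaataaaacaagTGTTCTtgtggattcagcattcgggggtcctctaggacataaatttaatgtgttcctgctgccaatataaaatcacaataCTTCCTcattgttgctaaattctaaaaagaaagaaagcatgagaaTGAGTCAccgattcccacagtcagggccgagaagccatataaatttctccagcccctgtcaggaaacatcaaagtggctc
Mmp13: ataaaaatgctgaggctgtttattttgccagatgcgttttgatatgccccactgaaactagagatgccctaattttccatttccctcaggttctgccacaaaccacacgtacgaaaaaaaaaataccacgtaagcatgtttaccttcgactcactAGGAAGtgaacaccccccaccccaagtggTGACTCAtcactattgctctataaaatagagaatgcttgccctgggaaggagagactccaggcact
Timp1: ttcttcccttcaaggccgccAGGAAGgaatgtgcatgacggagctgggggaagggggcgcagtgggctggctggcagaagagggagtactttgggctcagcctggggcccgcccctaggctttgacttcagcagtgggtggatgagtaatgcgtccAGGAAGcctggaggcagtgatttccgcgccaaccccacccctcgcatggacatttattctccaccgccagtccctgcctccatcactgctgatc

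The promoters of Mmp12 and Mmp7 hold the AP-1 motif as TGAGTCA and that of Mmp13 as TGACTCA. Mmp7 also has 1 ETS motif and 1 androgen half-site, and Mmp13 has 1 ETS motif. Timp1 has 2 ETS motifs and no TGANTCA in this window, and other spellings of AP-1 sites were not searched for. All of these motifs are matches of letters, and binding was not measured.

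Among the other genes, Mmp7 (matrilysin, an epithelial protease that lacks the hemopexin domain of most relatives) varied strongly within groups. Its signals were 11.98, 13.79 and 12.97 in sham, 11.77, 12.34 and 12.75 in BPH and 12.06, 11.54 and 10.77 in BPH+ghrelin. All groups overlapped, and the differences were -0.63 ± 0.50 SE for BPH against sham (adjusted p = 0.44), -0.83 ± 0.50 SE for BPH+ghrelin against BPH (adjusted p = 0.37) and -1.46 ± 0.50 SE for BPH+ghrelin against sham (adjusted p = 0.12). Without sham replicate 1, the last of these was -1.93 with an adjusted p of 0.044. With 1 array left out, the differences ranged from -1.10 to -0.19, from -1.13 to -0.48 and from -1.93 to -1.01 in the same order. The highest limma adjusted p for BPH+ghrelin against sham was then 0.28.

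BPH+ghrelin against BPH asks what ghrelin added. In this comparison 0 of 24 genes were called by limma, with 1.48% of all 19749 genes tested being called (0.496% higher and 0.987% lower). Before adjustment, 8 of 24 genes had a p under 0.05, compared to 21.1% of all genes. Of these, 2 were higher and 6 lower, compared to 10.7% and 10.5% of all genes. Fitted differences of at least 2-fold were seen for Mmp17 (higher, as 2.9% of all genes) and for Mmp15 and Mmp16 (lower, as 3.21% of all genes). For Mmp16, which had no BPH+ghrelin array well above background, the measured limit was only at least 1.82-fold. Of the 24 genes, 9 showed no overlap between the groups (37.5%, compared to 39.2% of all genes tested). Without overlap, Mmp17, Adamts9 and Timp1 were higher (19.8% of all genes), and Mmp16, Mmp12, Adamts5, Adamts1, Timp2 and Mmp2 were lower (19.3% of all genes). A higher mean was found for 11 and a lower one for 13 genes, compared to 51.7% and 48.3% of all genes. The median difference was -0.20, compared to 0.02 over all genes.

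Closest to the threshold was Mmp17, a membrane-type metalloproteinase with a lipid anchor. It had signals of 4.81, 4.41 and 4.47 in sham, 4.54, 4.93 and 5.37 in BPH and 6.05, 5.97 and 5.93 in BPH+ghrelin. The BPH+ghrelin arrays were above all other arrays, and sham and BPH overlapped. Mmp17 was 2.05-fold higher in BPH+ghrelin compared to BPH (difference 1.04 ± 0.21 SE, limma adjusted p = 0.058), and with normexp the difference was 0.40. Its other probe was not well above background on any array. Mmp16 was at least 1.82-fold lower in BPH+ghrelin compared to BPH, as measured against the background limit (fitted difference -1.02 ± 0.21 SE, adjusted p = 0.061). It entered this comparison through its BPH signal alone, so its fitted values here are no more than a description. Mmp12 was 1.92-fold lower (difference -0.94 ± 0.21 SE, adjusted p = 0.071). Without BPH replicate 3, Mmp17 (difference 1.24, adjusted p = 0.033), Mmp15 (-1.85, adjusted p = 0.043) and Mmp16 (-1.22, adjusted p = 0.030) passed the threshold. When normalized and fitted with the 6 arrays of this comparison alone, Mmp12, Mmp16, Mmp17 and Adamts1 were called, with adjusted p-values of 0.033, 0.045, 0.040 and 0.029.

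Mmp15, a membrane-type enzyme, had the largest fitted fold among the 24 genes, with uneven values in BPH. Its signals were 11.63, 11.07 and 11.42 in sham, 12.92, 12.17 and 10.82 in BPH and 10.97, 10.80 and 10.33 in BPH+ghrelin. BPH replicate 3 lay within the BPH+ghrelin range. The difference between BPH+ghrelin and BPH was -1.27 ± 0.47 SE (adjusted p = 0.18), and that of its other probe was -0.40. With 1 array left out, the difference ranged from -1.85 to -0.79 (limma adjusted p from 0.043 to 0.44).

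Of the proteoglycan-cleaving ADAMTS, 4 were tested and 0 were called by limma in any comparison, while 0, 3 and 0 had an unadjusted p under 0.05 in BPH against sham, BPH+ghrelin against BPH and BPH+ghrelin against sham, compared to 26.5%, 21.1% and 23.7% of all genes. Adamts1, which cleaves versican, had signals of 8.23, 9.03 and 8.46 in sham, 9.12, 8.92 and 8.67 in BPH and 8.14, 8.13 and 8.14 in BPH+ghrelin. The BPH+ghrelin arrays were below all others (difference to BPH -0.77 ± 0.21 SE, adjusted p = 0.11). Adamts5, an aggrecan-cleaving enzyme, had 4.95, 5.46 and 5.03 in sham, 5.96, 5.77 and 5.50 in BPH and 4.32, 4.78 and 5.44 in BPH+ghrelin. It was higher in BPH compared to sham by 0.60 ± 0.29 SE (adjusted p = 0.22) and lower in BPH+ghrelin compared to BPH by a difference of -0.90 ± 0.29 SE (adjusted p = 0.14), both without overlap. Both comparisons share the BPH arrays. Adamts9 ran the other way, with 5.96, 6.56 and 6.24 in sham, 5.45, 5.80 and 6.16 in BPH and 6.61, 6.58 and 6.48 in BPH+ghrelin (difference to BPH 0.75 ± 0.21 SE, adjusted p = 0.11). All its BPH+ghrelin arrays were above all BPH arrays, while sham overlapped with BPH. The probes of Adamts15 disagreed in direction for BPH against sham, with differences of 0.14 and -0.43. Adamts7, which cleaves cartilage oligomeric matrix protein, showed differences between -0.32 and -0.13 in the 3 comparisons, with adjusted p-values from 0.34 to 0.66.

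The remaining genes tested varied within the spread of the arrays or were dim. Mmp24, a membrane-type enzyme, spread widely in BPH+ghrelin, with signals of 3.91, 4.09 and 3.51 in sham, 3.73, 2.75 and 3.20 in BPH and 2.37, 3.61 and 4.60 in BPH+ghrelin. Its differences were -0.61 ± 0.51 SE for BPH against sham (adjusted p = 0.46) and 0.31 ± 0.51 SE for BPH+ghrelin against BPH (adjusted p = 0.76). Mmp23 ranged from 6.22 to 6.80 in sham, 6.43 to 6.56 in BPH and 6.08 to 7.08 in BPH+ghrelin, and the 3 groups overlapped. Adamtsl4, an ADAMTS-like protein of microfibrils without protease activity, had signals of 3.35, 3.14 and 3.21 in sham, 3.75, 3.56 and 3.89 in BPH and 3.78, 2.99 and 3.24 in BPH+ghrelin. All its BPH arrays were above all sham arrays (difference 0.50 ± 0.21 SE, adjusted p = 0.17). Adamts19 and Adamtsl3 were well above background on 3 of 9 arrays and entered only the comparison of BPH+ghrelin with BPH, with differences of 0.14 ± 0.45 SE (adjusted p = 0.88) and -0.74 ± 0.59 SE (adjusted p = 0.50).

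BPH+ghrelin against sham spans both treatments, and 3 of 22 genes were called, with 6.29% of all 19197 genes tested being called (2.99% higher and 3.3% lower). Mmp17 and Timp1, which were well above background on all 6 arrays, rose. The third was Mmp16, with no BPH+ghrelin array well above background. Mmp16 was at least 3.82-fold lower in BPH+ghrelin compared to sham (fitted difference -2.09 ± 0.21 SE, n = 3 per group, limma adjusted p = 0.0022), but Mmp16 entered this comparison through its sham signal alone, so that the fitted difference and its p are no more than a description here too. A filter that requires all 6 arrays to be well above background leaves it untested. With normexp its difference was -0.32 (adjusted p = 0.022). Mmp17 was 2.68-fold higher (difference 1.42 ± 0.21 SE, adjusted p = 0.011), and with normexp its difference was 0.53 (adjusted p = 0.0098). Timp1, with 12.72, 12.66 and 12.66 in BPH+ghrelin, was above all BPH and all sham arrays and was 2.25-fold higher than in sham (difference 1.17 ± 0.18 SE, adjusted p = 0.012). The calls of Mmp17 and Timp1 were lost without sham replicate 3 (adjusted p = 0.057 and 0.053) or without BPH+ghrelin replicate 2 (adjusted p = 0.060 and 0.064). Slide 2 held 2 arrays of each of these groups, and within it the differences were -2.13 (Mmp16), 1.34 (Mmp17) and 1.18 (Timp1), with adjusted p-values of 0.16, 0.34 and 0.47. Before adjustment, 6 genes had a p under 0.05 (23.7% of all genes), 2 higher (13.5%) and 4 lower (10.2%). At least 2-fold differences were seen for the 3 called genes and for Mmp7, 2 higher (3.21% of all genes) and 2 lower (4.2%). Of the 22 genes, 8 showed no overlap (36.4%, compared to 30.4% of all genes tested), namely Mmp12, Mmp17 and Timp1, which were higher (17.5% of all genes), and Adamts1, Mmp14, Mmp15, Mmp16 and Timp2, which were lower (12.8%). A higher mean was found for 10 and a lower one for 12 genes, compared to 54.4% and 45.5% of all genes, and their median difference was -0.24, compared to 0.04 over all genes.

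**Figure D4:**
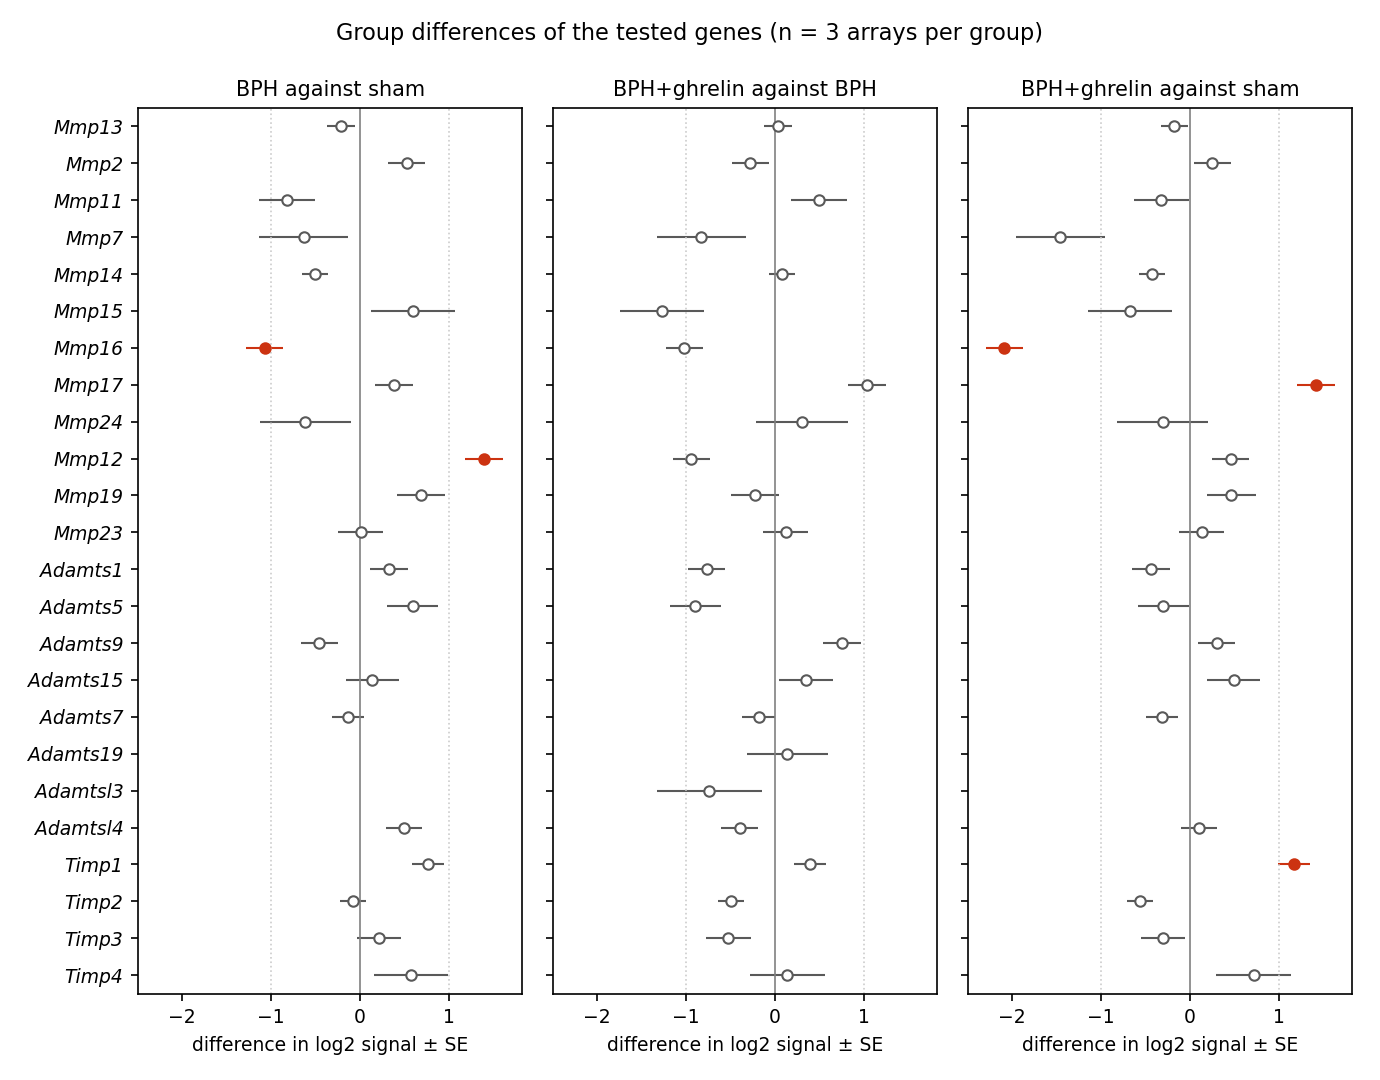
Difference in log2 signal ± SE (limma, 3 arrays per group) of the genes tested in the 3 comparisons. Filled red points are genes with an adjusted p under 0.05, and the dotted lines mark a 2-fold difference. Mmp12 and Mmp16 are red on the left, no gene is red in the middle, and Mmp16, Mmp17 and Timp1 are red on the right.

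The 4 TIMPs did not move together. Timp2, which blocks metalloproteinases and takes part in the activation of Mmp2, had signals of 11.80, 11.64 and 11.68 in sham, 11.87, 11.56 and 11.46 in BPH and 10.98, 11.16 and 11.29 in BPH+ghrelin. The BPH+ghrelin arrays were below all others, with a difference of -0.49 ± 0.15 SE to BPH (adjusted p = 0.13) and of -0.56 ± 0.15 SE to sham (adjusted p = 0.061). With eBayes moderation using a trend and robust settings, the latter was called (adjusted p = 0.043), as it was with normexp (difference -0.59, adjusted p = 0.027). Timp4 had signals of 10.09, 8.56 and 9.73 in sham, 9.48, 10.09 and 10.54 in BPH and 10.48, 10.22 and 9.83 in BPH+ghrelin, all overlapping, with differences of 0.58 ± 0.42 SE (BPH against sham, adjusted p = 0.40) and 0.14 ± 0.42 SE (BPH+ghrelin against BPH, adjusted p = 0.87). Its lowest value was that of sham replicate 2, the array with the fewest probes above background. Timp3, the matrix-bound inhibitor that also blocks ADAMTS enzymes, was well above background on 5 of 9 arrays and ranged from 2.55 to 3.15 in sham, 2.71 to 3.50 in BPH and 2.27 to 2.81 in BPH+ghrelin.

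Of the membrane-type enzymes, 5 had a probe and all 5 were tested. Mmp16 fell in BPH against sham and was not well above background in BPH+ghrelin, Mmp17 rose in BPH+ghrelin against sham, and Mmp14, Mmp15 and Mmp24 were not called in any comparison. For Mmp14, all BPH+ghrelin arrays (10.52, 10.42 and 10.38) were below the lowest sham array, with a difference of -0.43 ± 0.15 SE to sham (adjusted p = 0.12) and of 0.08 ± 0.15 SE to BPH (adjusted p = 0.79). Without sham replicate 2 Mmp14 was called in both comparisons with sham, with differences of -0.62 for BPH (adjusted p = 0.041) and -0.54 for BPH+ghrelin (adjusted p = 0.038). With scaling to the 75th percentile it was called in BPH against sham (difference -0.59, limma adjusted p = 0.042).

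Activators and other inhibitors of these enzymes were read from a list of 27 genes, of which 19 were tested. In BPH against sham 3 rose and 1 fell, in BPH+ghrelin against BPH 0 rose and 2 fell, and in BPH+ghrelin against sham 1 rose and 3 fell, compared to 4.34%, 1.48% and 6.29% of all genes called in either direction. Plau, the urokinase that turns plasminogen into plasmin, had signals of 6.57, 5.71 and 6.24 in sham, 8.09, 7.72 and 7.16 in BPH and 5.84, 5.78 and 5.40 in BPH+ghrelin. All BPH arrays were above all other arrays. Plau was 2.80-fold higher in BPH compared to sham (difference 1.48 ± 0.29 SE, limma adjusted p = 0.035) and 3.95-fold lower in BPH+ghrelin compared to BPH (difference -1.98 ± 0.29 SE, adjusted p = 0.025), and both comparisons share the BPH arrays. Adam9 and Adam17, membrane proteases that shed surface proteins, rose in BPH compared to sham by 0.75 ± 0.15 SE and 0.77 ± 0.16 SE (adjusted p = 0.033 and 0.036).

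Mep1b, a subunit of the metalloprotease meprin, showed the largest fall in this list. Its signals were 15.03, 14.15 and 14.74 in sham, 12.39, 11.64 and 9.95 in BPH and 10.42, 10.08 and 9.30 in BPH+ghrelin. Compared to sham, Mep1b fell in BPH (difference -3.31 ± 0.59 SE, adjusted p = 0.026) and in BPH+ghrelin (difference -4.71 ± 0.59 SE, adjusted p = 0.0051). The summed signal of secretory epithelium markers (9 of 10 on the array detected) was 17.61 to 17.66 in sham, 15.79 to 16.41 in BPH and 16.00 to 16.33 in BPH+ghrelin. These markers did not move together, since 4 of the 9 were higher and 5 lower in BPH compared to sham, with a median difference of -0.21. Pbsn fell (difference -2.65 ± 0.23 SE, adjusted p = 0.0019), while Krt8, an epithelial keratin, rose (difference 0.96 ± 0.13 SE, adjusted p = 0.0091). The summed signal of seminal vesicle and coagulating gland markers (6 of 6 detected) was 16.46 to 17.27 in sham, 9.48 to 14.79 in BPH and 9.09 to 11.92 in BPH+ghrelin. Their part in the result was not tested. Bmp1, the procollagen C-proteinase, rose and Plat, the tissue plasminogen activator, fell in BPH+ghrelin compared to sham (differences 0.52 ± 0.10 SE and -0.76 ± 0.18 SE, adjusted p = 0.028 and 0.046).

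With the replicate number as a block, Mep1b alone was called in this list, in both comparisons with sham, and with slide as a block 0 genes were called. For Plau, the adjusted p was then 0.051 and 0.78 in BPH against sham and 0.061 and 0.30 in BPH+ghrelin against BPH. With normexp, the differences were 0.92 and -1.19 for Plau in these comparisons and 0.43 for Adam17, all of them called. With the mean of its probes Bmp1 was not called (difference 0.41, adjusted p = 0.13). In BPH against sham, 0 of the 19 genes were called with the 6 arrays compared only, and Plau and Adam17 were not called without a filter on dim probes (adjusted p = 0.052 and 0.053). Of the calls in this list, those for BPH against sham were all lost without sham replicate 3 or without BPH replicate 2. Those for BPH+ghrelin against BPH were called without BPH replicate 3 only, and with any other of the 6 arrays left out 0 remained. For BPH+ghrelin against sham, Mep1b was called without any single array (adjusted p from 0.0085 to 0.030), and no other gene of the list was called when sham replicate 3 or BPH+ghrelin replicate 1 or 2 was left out.

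Matrix proteins that these enzymes cleave were read from a list of 22 genes, of which 15 were tested. Higher in BPH compared to sham were 13 of the 15, compared to 53.7% of all genes, with a median difference of 0.37. In the same comparison 7 of 7 fibroblast and 4 of 4 adipocyte markers were higher, with medians of 0.37 and 1.05 and 0 called by limma, and 0 of either had an unadjusted p under 0.05. Col1a1, Col1a2, Col3a1, Dcn and Lum stand in both the matrix and the fibroblast list. Counts and medians of these lists are therefore not independent, here and below. Of the 15 matrix genes, 0 were called by limma and 2 had an unadjusted p under 0.05, compared to 4.34% and 26.5% of all genes. Lower in BPH+ghrelin compared to BPH were 14 of the 15, compared to 48.3% of all genes, with a median of -0.30. Of these, 1 was called, compared to 1.48% of all genes. This was Lum (lumican, a small proteoglycan of collagen fibrils), which had signals of 6.98, 6.73 and 6.34 in BPH and 4.62, 5.08 and 5.39 in BPH+ghrelin (difference -1.65 ± 0.23 SE, adjusted p = 0.024). Lum is also a fibroblast marker, and the summed signal of the 7 fibroblast markers on the array was 14.24 to 14.85 in BPH and 14.18 to 14.65 in BPH+ghrelin. Counted by marker, 5 of 6 fibroblast, 7 of 7 smooth muscle and 4 of 5 endothelium markers tested were lower in BPH+ghrelin compared to BPH, with medians of -0.21, -0.49 and -0.31. So were 5 of 6 macrophage and 4 of 4 adipocyte markers, with medians of -0.47 and -1.29 and 0 called by limma, and 3 and 0 of them had an unadjusted p under 0.05. The summed adipocyte signal was 11.65 to 12.73 in BPH and 9.00 to 13.06 in BPH+ghrelin, which overlapped. In each of the first 3 lists 1 marker was called lower, namely Lum, Myh11 (smooth muscle myosin, difference -0.96) and Cldn5 (an endothelial tight junction protein, difference -1.35). Their part in the matrix gene differences was not tested. In BPH+ghrelin compared to sham, Lum and Bgn (biglycan) fell (differences -1.42 ± 0.23 SE and -1.13 ± 0.21 SE, adjusted p = 0.015 and 0.022). With single arrays left out, Lum was called against BPH only without BPH replicate 3, and the calls of Lum and Bgn against sham were lost without sham replicate 3 or without BPH+ghrelin replicate 2 (highest adjusted p 0.15, 0.068 and 0.098). With normexp, the differences of Lum were -0.69 to BPH and -0.61 to sham, and both were called. Taking the mean of its probes, Bgn differed by -0.40 from sham and was not called (adjusted p = 0.26). With the replicate block or with slide as a block, 0 matrix genes were called in any comparison.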

How the data were processed

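Prostate RNA of 9 rats (3 per group) was hybridised to Agilent one-colour arrays. The authors deposited, for each array, the scanner software's background-subtracted intensity per spot, which is not normalized between arrays, and a matrix of log2 values that the authors had quantile normalized in GeneSpring. The intensities were used, and the matrix served as an alternative. Outlier spots were removed, spots of a probe were averaged (30356 of 30367 probes kept), and log2 intensities were quantile normalized. Accessions were matched to the RefSeq gene table (assembly GRCr8), and a gene was represented by its brightest passing probe. A probe passed with a signal well above background on 3 or more of the 6 arrays in a comparison. Groups were compared with limma (3-group model, lmFit and eBayes) with Benjamini-Hochberg adjustment over all genes tested. A call is an adjusted p under 0.05, and fold changes are 2 to the power of the difference of mean log2 values. With 3 arrays per group, the smallest two-sided p of an exact permutation test is 0.1. A gene with 0 of 3 arrays well above background in a group is given as at least N-fold, against the lowest signal well above background of each array. The number of arrays limits the precision. Slides were told apart from the scanner headers.

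Named were genes called, genes changed at least 2-fold without overlap, the 3 largest differences per comparison and direction, and Mmp2, Mmp3, Mmp7, Mmp9, Mmp14, Timp1 to Timp4, Adamts1, Adamts4 and Adamts5. Others were named to complete a count. Of the other gene lists, genes called and markers beside a result were named. The members and lists were chosen with earlier results of these data known. The fit was tested on simulated data. Alternatives were scaling to the 75th percentile, normexp (offset 50, on the median signals of spot and background), other filters on dim probes, fits with 6 arrays, the mean of probes, the matrix, replicate number or slide as a block, values within a slide, eBayes with trend and robust settings, and each array left out. Slide as a random block and leaving out the 3 in-between arrays were added after the data were seen. Replicate numbers did not pair the samples, since deviations of arrays with the same number correlated at -0.14 to 0.26. R 4.3.3, limma 3.58.1, Python 3.11.15 and matplotlib 3.10.9 were used. Some genes counted in the gene lists are not reported here by name.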

Additional observations from a re-analysis of the deposited data

How the results depend on the processing

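The directions of Mmp12 and Mmp16 (BPH against sham) and of Mmp16, Mmp17 and Timp1 (BPH+ghrelin against sham) were kept under all alternatives run for them, while their calls were not. These genes were picked as called and their groups did not overlap, so leaving out an array could hardly turn a direction. All alternatives also reuse the same arrays, so the kept directions are no separate support for these differences. In BPH against sham, the main 2 calls became 0 with the 6 arrays compared only, with slide as a block and with the 3 in-between arrays left out (chosen after seeing the data), and 1 with the replicate block, where Mmp16 had an adjusted p of 0.065. The count stayed at 2 with normexp, without a filter on dim probes and with trend and robust settings, but Mmp16 was no longer called in any of these, and Timp1, Adamts12 and Timp1 were called beside Mmp12. Adamts12 was well above background on 0 arrays, so its call without the filter compares signals near background only. The count rose to 3 with scaling to the 75th percentile, which added Mmp14. It also rose to 3 with the deposited matrix and with the filter on all 6 arrays, which both added Timp1. In BPH+ghrelin against BPH, the main 0 calls became 1 with scaling to the 75th percentile (Mmp12), 2 with normexp (Mmp12 and Mmp17) and 4 with the 6 arrays compared only. The replicate block changed no call in this comparison or in BPH+ghrelin against sham, where the main 3 calls became 0 with slide as a block, within slide 2 and with the 3 in-between arrays left out. Over all genes, the replicate block reduced the calls from 849 to 242, from 293 to 20 and from 1207 to 462, slide as a block to 2, 2 and 85, and the 6 arrays compared only gave 181, 2106 and 903. Slide as a random block (chosen after seeing the data) had a correlation within slides of -0.21, -0.21 and -0.22 and gave 9, 5 and 3 calls of members, with 7084, 1833 and 1229 genes called. No filter on dim probes gave 533, 188 and 805 genes, and scaling to the 75th percentile 897, 502 and 1327. The cause of these shifts was not tested.

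With 1 array left out, members called ranged from 0 to 3, 0 to 3 and 1 to 4 in the order of the comparisons above, members at least 2-fold from 2 to 3, 1 to 5 and 3 to 5, non-overlapping members from 9 to 13, 9 to 16 and 8 to 14, and the median of members from 0.0667 to 0.19, from -0.27 to -0.0615 and from -0.25 to -0.0334. Members at least 2-fold were 1, 1 and 2 with normexp, 7 without a filter in BPH+ghrelin against sham, and 4 in BPH against sham with slide as a fixed or a random block. The median of members was 0.0375 (BPH against sham) and -0.14 (BPH+ghrelin against BPH) with scaling to the 75th percentile, which moved the median of all genes in BPH against sham from 0.04 to -0.09. It was 0.0560, -0.0230 and -0.00110 with normexp, 0.0450, -0.0119 and -7.4e-05 without a filter, and 0.0769, -0.0719 and -0.0837 with a filter on all 6 arrays. It was -0.0623 in BPH+ghrelin against sham with slide as a block and within slide 2, and -0.27 in BPH+ghrelin against BPH with slide as a random block. Only slide 2 held both BPH+ghrelin and sham arrays, so slide as a block and within slide 2 give the same differences there.

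Differences that changed sign lay between -0.14 and 0.15. In BPH against sham these were Timp3 at -0.13 with scaling to the 75th percentile and -0.0427 with slide as a block, and Mmp11 at 0.0401 and Timp2 at 0.15 with slide as a block. Timp2 also changed sign without BPH replicate 3, and ranged from -0.20 to 0.00933 with 1 array left out. In BPH+ghrelin against BPH these were Mmp11 at -0.0838 with slide as a block and within slide 1, and Timp4 at -0.00954 with slide as a random block. Only slide 1 held both of these groups, with 1 BPH+ghrelin array, so the value of Mmp11 is the same estimate in both settings. Timp4 also changed sign without BPH replicate 1 (-0.14) and without BPH+ghrelin replicate 1 (-0.00743), and ranged from -0.14 to 0.40 with 1 array left out. Of all values recomputed for single genes, 31 passed the threshold anew and 141 no longer passed it. Signal over background limits the dim probes, such as Mmp16, Mmp19, Mmp13 and Timp3.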
